A study of Homo sapiens with 10 samples.

Results

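The genes for the ligands of the EGF receptor family were examined in MDAMB231, a human triple-negative breast cancer cell line. The 9 genes were EGF, TGFA, HBEGF, AREG, EREG, BTC, EPGN, NRG1 and NRG2, of 20162 protein-coding genes in the GENCODE annotation on GRCh37 (hg19). They were taken by name. Peaks counted as near a gene when they shared at least 1 base with its bounds widened by 50 kb on each side, which is called its window here. A promoter was any annotated start site of the gene widened by 1 kb on each side. AREG, EREG, BTC and EPGN are neighbours on chromosome 4 and were also counted as 1 unit.

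The cells were grown in DMEM with 5% FBS and received no treatment. FAIRE-seq, which recovers DNA depleted of nucleosomes, was performed on 2 samples with 1 input, and ChIP-seq of H3K4me1, H3K4me3 and H3K27Ac on 2 samples each with 1 input, making 10 samples. The authors combined the samples of an assay into a single list of peaks, so no value below has a replicate error and no difference was tested. The lists give no read depth, and a peak in them does not tell what share of the cells carries it.

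These ligands are made as membrane-bound precursors that proteases of the ADAM family cut from the cell surface. EGF, TGFA, AREG and EPGN bind EGFR, HBEGF, BTC and EREG bind both EGFR and ERBB4, and the neuregulins NRG1 and NRG2 bind ERBB3 and ERBB4. Basal-like breast cancers often carry high levels of EGFR, and several of the ligands are known to be transcribed in response to its signalling. H3K4me3 marks promoters, H3K4me1 marks enhancers, H3K27Ac marks active forms of both, and FAIRE peaks mark open chromatin.

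The lists held 18019 H3K4me3 peaks, 37495 H3K27Ac peaks, 26771 H3K4me1 peaks and 46552 FAIRE peaks. The score of a histone peak is minus 10 times the log10 of its MACS p-value. It is 3100 or more for 56.8% of H3K4me3 peaks and 10.5% of H3K27Ac peaks, and peaks in this range cannot be ranked. The value of a FAIRE peak is its height, with a list median of 61.1. Some FAIRE peaks abut without a gap, as at chr5:139690076-139691045 and chr5:139691046-139692677 near HBEGF. Counts of FAIRE peaks can thus exceed the number of separate open regions. As a check of the cell line, promoters of all 4 mesenchymal-like basal genes examined (VIM, CD44, CAV1 and AXL) carried peaks of all 4 lists. Of the luminal genes ESR1, GATA3, FOXA1 and KRT8, all 4 had H3K4me3 at a promoter. H3K27Ac was present at GATA3 and KRT8, with scores of 383 and 3129, FAIRE at FOXA1 and KRT8, and H3K4me1 at KRT8, which thus carried all 4 marks.

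An H3K4me3 peak lay at a promoter of 7 of the 9 ligand genes, and of 67.1% of all protein-coding genes. H3K27Ac was also found at promoters of 7, where the share of all genes was 63.3%. H3K4me1 was found at promoters of 5, against 20% of all genes, and FAIRE at promoters of 5, against 39.2%. TGFA, EREG, HBEGF, BTC, NRG1 and NRG2 carried both H3K4me3 and H3K27Ac, which makes 6 of 9, and 61.1% of all genes did so. EPGN was the 1 ligand gene with no promoter peak of any list, a state shared by 29.5% of all genes. The shares of the members are thus near those of all genes for H3K4me3 and H3K27Ac. EGF had H3K27Ac, H3K4me1 and FAIRE without H3K4me3, and AREG had H3K4me3 alone.

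**Figure D1:**
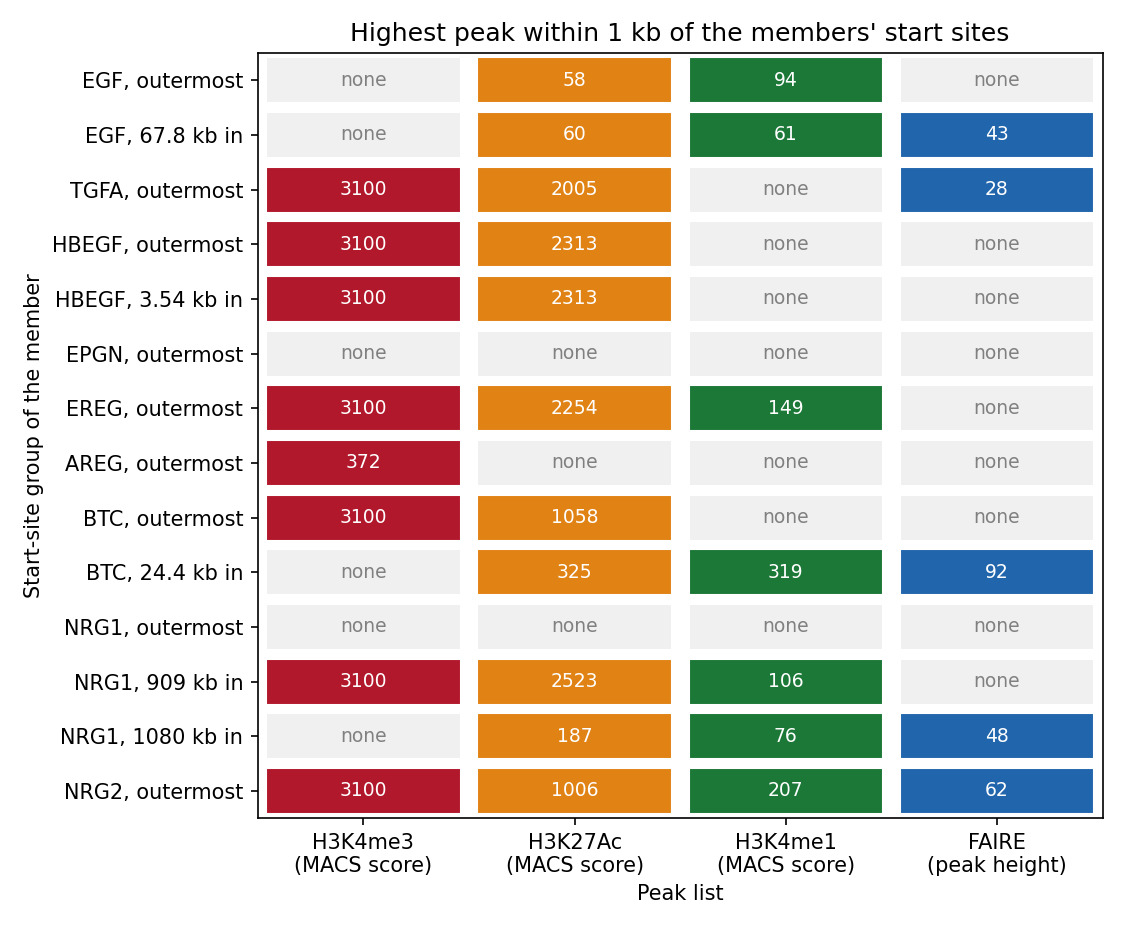
Highest peak within 1 kb of a start site, for the outermost start-site group of each ligand gene and for every inner group with a peak, in the 4 lists (columns). Cells give the MACS score or the FAIRE height, and grey cells have no peak; H3K4me3 stood at 3100 at 6 genes and at 372 at AREG, while EPGN had none of the 4.

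Most of these genes have several start sites, and only some of them carried peaks. The 9 genes have 31 separate groups of start sites, and a group is called outermost when it holds the start farthest upstream. H3K4me3 lay at 8 of the 31 groups, H3K27Ac at 11, H3K4me1 at 7 and FAIRE at 5. At the outermost groups alone, H3K4me3 lay at 6 genes, H3K27Ac at 6, H3K4me1 at 3 (EGF, EREG and NRG2) and FAIRE at 2 (TGFA and NRG2). FAIRE peaks at the inner start sites of EGF, BTC and NRG1 made up the rest. At the outermost site itself, without its neighbours in the group, FAIRE was found at TGFA only. Shares of all protein-coding genes were computed for any start site only, so the counts by group and at outermost starts have no comparison.

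Taken whole, the windows held 13 H3K4me3, 54 H3K27Ac, 52 H3K4me1 and 69 FAIRE peaks, promoter peaks included and shared peaks counted once. Abutting FAIRE peaks were counted separately. Their median H3K27Ac score was 670 (591 in the list), their median H3K4me1 score 149 (114) and their median FAIRE height 62.2 (61.1). Per 100 kb of window, HBEGF and EREG had the most FAIRE peaks, 8.79 and 6.47, and NRG2 the fewest, 1.01, where the median of all protein-coding genes was 1.97. H3K4me1 was above its all-gene median of 0.807 peaks per 100 kb at every one of the 9 genes, from 1.34 at BTC to 4.05 at EREG. The EREG window shares some of these peaks with those of AREG and EPGN. At a MACS score of 100 or more the H3K4me1 peaks fell from 3 to 1 at EGF and from 6 to 3 at TGFA. They fell from 5 to 3 at EREG and from 2 to 1 at BTC, while the median given is that of the full list. For H3K27Ac the density ran from 0.996 at EGF to 7.03 at HBEGF, with an all-gene median of 2.1. Without the peaks at start sites of PFDN1, a gene in the HBEGF window, the HBEGF value was 4.4. At a MACS score of 100 or more, 0 H3K27Ac peaks were left in the EGF window.

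**Figure D2:**
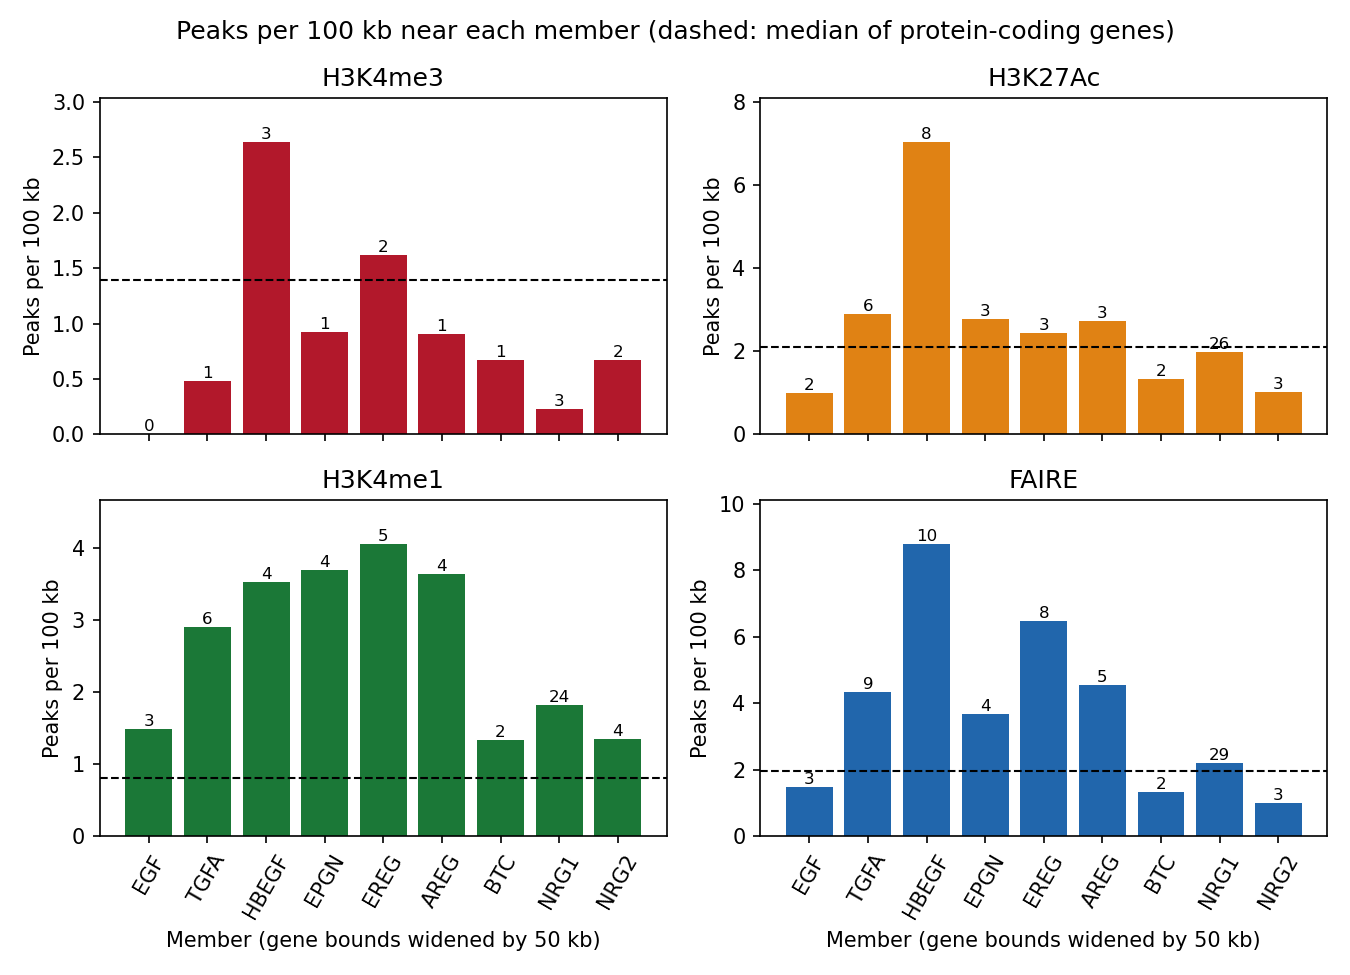
Peaks per 100 kb of window for the 9 ligand genes in each of the 4 lists, with the number of peaks above each bar and the median of all protein-coding genes as a dashed line. HBEGF stands highest for H3K27Ac (7.03) and FAIRE (8.79), with peaks at PFDN1 start sites included. All 9 bars for H3K4me1 lie above the median of 0.807.

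The overlap of the lists near the ligand genes depended on the list it was counted from. Of 41 H3K27Ac peaks that lay away from any protein-coding start site, 34 (82.9%) shared sequence with H3K4me1, where the whole list gave 68.0%. FAIRE met 31 of them (75.6%, 73.6% in the list), and both H3K4me1 and FAIRE met 28 (68.3%, 56.5%). Seen from the 60 FAIRE peaks away from coding start sites, 49 (81.7%, 67.1% in the list) lay in H3K27Ac and 7 (11.7%, 23.0%) met no histone peak. Of the 42 H3K4me1 peaks away from coding start sites, 69.0% met H3K27Ac (71.5% in the list), 73.8% met FAIRE (72.6%) and 21.4% met no other list (15.4%). These peaks are few, come from the same neighbourhoods and largely from NRG1, so the shares describe the windows and are not a test.

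HBEGF, which encodes heparin-binding EGF-like growth factor, also known as the receptor of diphtheria toxin, had the most H3K4me3, H3K27Ac and FAIRE peaks per 100 kb of the 9, and for H3K4me1 fewer than EREG, EPGN and AREG. The gene lies on the minus strand at chr5:139712428-139726188. Its outermost promoter carried H3K4me3 with a score of 3100 over 3869 bp and H3K27Ac with a score of 2313 over 4175 bp, and no H3K4me1. No FAIRE peak lay within 1 kb of a start site, and the nearest, with a height of 36.2, was centred 1.59 kb inside the gene. The 200 bases upstream of the start are rich in G and C (78.0%) and hold 5 matches to the Sp1 letters GGGCGG or their complement, a pair of which overlap. Here and in the sequences that follow, each is read 5′ to 3′ from GRCh37 on the strand named and capitals mark the matches; 46.4% of all protein-coding genes have this Sp1 motif in the same 200 bases.
HBEGF upstream, chr5:139726189-139726388, minus strand: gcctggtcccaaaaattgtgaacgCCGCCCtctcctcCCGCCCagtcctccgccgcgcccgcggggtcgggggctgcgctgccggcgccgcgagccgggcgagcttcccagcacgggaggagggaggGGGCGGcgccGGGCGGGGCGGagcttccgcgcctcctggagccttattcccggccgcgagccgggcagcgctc

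Beyond the 3′ end of HBEGF, between 14 and 60 kb from its start, stood 7 H3K27Ac peaks with scores from 70.5 to 3157, 3 H3K4me1 peaks with scores from 398 to 857, and 8 FAIRE peaks. An H3K27Ac peak with a score of 3157, in the range above 3100 where ranks cannot be read, was centred 34.1 kb from the start under the highest H3K4me1 score of the window, 857, above 99.0% of its list. The tallest FAIRE peak, with a height of 139, was centred in the same place at 34.3 kb. A further H3K27Ac peak, with a score of 3100, stood at 23.1 kb with FAIRE heights of 101 and 115, and one of 361 at 28.1 kb with a FAIRE height of 77.7. The farthest H3K27Ac peaks, at 43.6, 47.6 and 52.7 kb, lie at start sites of PFDN1, a subunit gene of the chaperone prefoldin, so that they cannot be assigned to HBEGF. The same holds for 1 H3K4me1, 1 H3K4me3 and 2 FAIRE peaks. Upstream of HBEGF the picture was nearly empty: 1 H3K4me3 peak with a score of 61.5 and 1 FAIRE peak with a height of 63.9.

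In total the HBEGF window held 8 H3K27Ac and 10 FAIRE peaks, more per 100 kb than at 98.0% and 98.8% of protein-coding genes. H3K4me1 covered 30.4% of the window, more than at 99.7% of genes, where the median was 2.42%. Without the peaks at PFDN1 start sites, an alternative chosen after seeing the data, 5 H3K27Ac and 8 FAIRE peaks are left, or 4.4 and 7.03 per 100 kb, and H3K4me1 covers 18.8%. The central 200 bases of the tallest FAIRE peak are shown because its height is the greatest in the HBEGF window. They hold 1 match to the AP-1 letters TGANTCA and 1 to the NF-kB letters, which are GGGA, then 4 bases of any kind, then CC, read on either strand. Among the central 200 bases of all FAIRE peaks, 29.4% hold the AP-1 letters and 8.84% those of NF-kB. In the FAIRE centres shown, Sp1 and TATA matches are not marked.
HBEGF FAIRE centre, chr5:139691762-139691961, plus strand: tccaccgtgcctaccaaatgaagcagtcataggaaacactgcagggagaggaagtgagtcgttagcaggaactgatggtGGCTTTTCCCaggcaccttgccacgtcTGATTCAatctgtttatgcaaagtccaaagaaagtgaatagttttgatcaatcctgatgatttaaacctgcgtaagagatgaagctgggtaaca

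**Figure D3:**
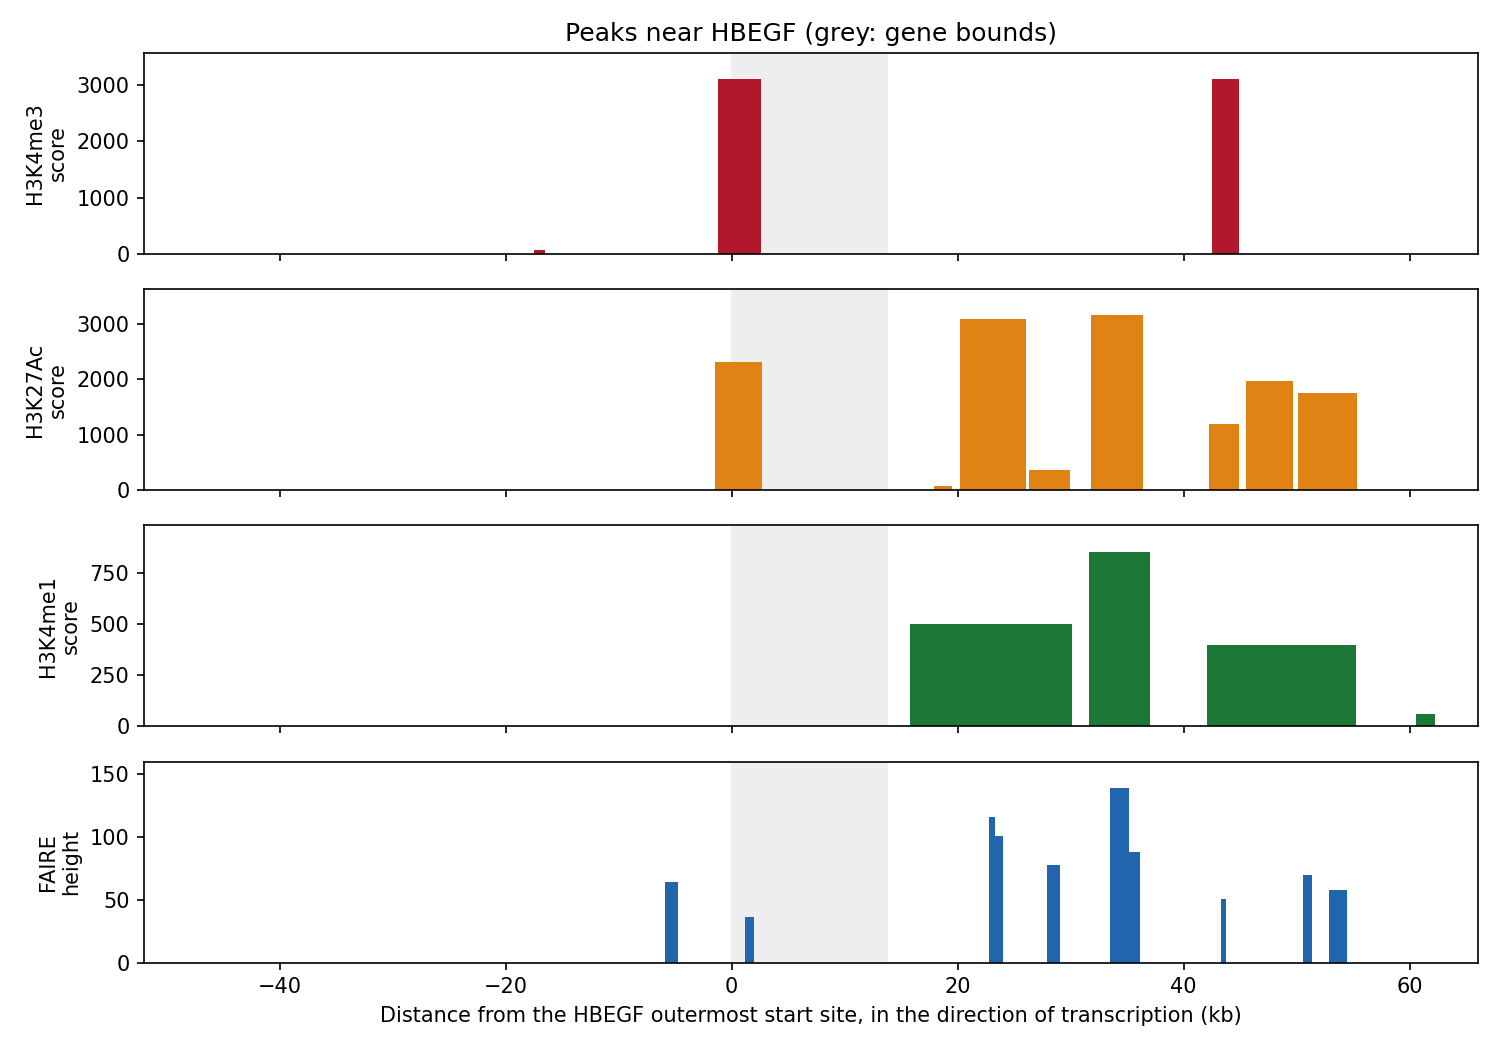
Peaks of the 4 lists in the HBEGF window by distance from the outermost start site in kb, with bars as wide as the peaks and as high as the MACS score or the FAIRE height; grey marks the gene. The tall H3K27Ac, H3K4me1 and FAIRE bars lie together downstream of the gene, with FAIRE reaching 139 at 34.3 kb.

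TGFA encodes transforming growth factor alpha, a ligand that often acts on the cell that makes it. The gene lies on the minus strand at chr2:70674416-70781325. Its outermost promoter was marked by H3K4me3 at 3100 and H3K27Ac at 2005, with a FAIRE peak of 28.4, above 2.56% of the FAIRE list. A second start-site group, 88.5 kb inside, had no peak. All 5 of the H3K27Ac peaks away from the promoter met FAIRE. The strongest had a score of 2076 and FAIRE heights of 64.6 and 87.4 and lay in the gene 29.3 kb from the start, without H3K4me1. Another, with a score of 1887 and FAIRE heights of 68.6 and 67.5, lay 42.3 kb upstream under an H3K4me1 peak of 150. The peaks of 942, 12.6 kb inside the gene, and 276, 15.8 kb upstream, met FAIRE heights of 57.6 and 51.4. The tallest FAIRE peak of the window, 93.6, stood deep in the gene at 82.7 kb with an H3K4me1 score of 313 and an H3K27Ac score of only 151.

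EGF, the founding member of the family, showed weak marks. The gene lies on the plus strand at chr4:110834039-110934922. Its outermost promoter had H3K27Ac with a score of 58.2, above 2.79% of the list, and H3K4me1 with a score of 94.0, and no H3K4me3 or FAIRE peak. An inner start site 67.8 kb from the 5′ end, with no transcript annotated as protein-coding, had H3K27Ac at 59.8, H3K4me1 at 60.9 and FAIRE at 42.9. No H3K4me3 peak lay anywhere in the window, as at 14.9% of protein-coding genes. The strongest H3K4me1 peak of the window, 163, and its tallest FAIRE peak, 52.9, lie at a start site of ELOVL6, a fatty acid elongase gene. At a MACS score of 100 or more, no H3K27Ac peak remained at an EGF promoter. The 200 bases upstream of EGF hold the only AP-1 match among the 9 genes, 11 to 17 bases before the start, overlapped by the TEAD letters GGAATG on the opposite strand. The AP-1 letters occur upstream of 4.38% of all genes and the TEAD letters upstream of 8.63%.
EGF upstream, chr4:110833839-110834038, plus strand: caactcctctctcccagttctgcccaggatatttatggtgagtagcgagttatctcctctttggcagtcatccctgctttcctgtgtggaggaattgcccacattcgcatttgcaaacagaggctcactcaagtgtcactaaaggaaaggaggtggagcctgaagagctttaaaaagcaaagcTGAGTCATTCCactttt

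EPGN, EREG, AREG and BTC stand in this order on chromosome 4. Epigen, epiregulin, amphiregulin and betacellulin are their products. With 50 kb on each side the unit runs over chr4:75124187-75769733, or 645.5 kb, and held 4 H3K4me3, 15 H3K27Ac, 21 H3K4me1 and 27 FAIRE peaks. The windows of the single genes held 9 of the H3K27Ac peaks and 15 of the FAIRE peaks. The other 6 H3K27Ac, 10 H3K4me1 and 12 FAIRE peaks lay between AREG and BTC and would be missed by counting gene by gene. AREG and BTC are 349 kb apart in GRCh37.

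The promoters of the unit differed from gene to gene. EREG, at chr4:75230862-75254466 on the plus strand, had H3K4me3 at 3100 over 5312 bp, H3K27Ac at 2254 over 8009 bp and H3K4me1 at 149, with no FAIRE peak. The EREG H3K4me1 peak was centred 2.67 kb inside the gene. It does not count with start sites widened by 500 bp or with the peak centre in the promoter. By the peak centre, the EREG H3K4me3 peak does not count either. BTC, at chr4:75669969-75719733 on the minus strand, had H3K4me3 at 3100 and H3K27Ac at 1058 at its outermost start, again with no FAIRE peak. Its inner start site, 24.4 kb away, had no H3K4me3 but had H3K27Ac at 325, H3K4me1 at 319 and FAIRE heights of 92.5 and 53.5. AREG, at chr4:75310853-75320722 on the plus strand, had H3K4me3 with a score of 372 over only 508 bp, above 20.8% of the list, and none of the other marks. The AREG promoter lies in duplicated sequence, described below, which limits these values. EPGN, at chr4:75174187-75182506 on the plus strand, had no peak at its start sites, and the 1 peak inside its bounds was a FAIRE peak of 41.7. The H3K4me3 peak counted in the EPGN window is that of the EREG promoter. Among the outermost starts of the 4, EREG had the widest H3K4me3 and H3K27Ac peaks.

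AREG, EREG and EPGN also share letters upstream of their starts, shown here beside BTC. Each has the TATA letters TATAAA on the strand of the gene, beginning 29 bases before the start at AREG, 32 at EREG and 29 at EPGN. These letters were found upstream of 4 of the 9 ligand genes, NRG1 being the fourth, and of 8.11% of all genes, on either strand. AREG alone has the cAMP response element letters TGACGTCA, 58 to 65 bases before the start, which 1.79% of all genes have. BTC has 2 matches to the NF-kB letters, found upstream of 20.3% of all genes, and EREG has a TEAD match. The G and C content is 67.0% at AREG, 57.0% at EREG, 41.5% at EPGN and 64.5% at BTC. Matches describe letters, not binding.
AREG upstream, chr4:75310653-75310852, plus strand: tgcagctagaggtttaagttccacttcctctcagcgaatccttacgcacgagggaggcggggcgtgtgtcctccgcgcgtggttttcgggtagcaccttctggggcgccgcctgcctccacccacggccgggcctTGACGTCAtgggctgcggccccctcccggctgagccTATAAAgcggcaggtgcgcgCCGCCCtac
EREG upstream, chr4:75230662-75230861, plus strand: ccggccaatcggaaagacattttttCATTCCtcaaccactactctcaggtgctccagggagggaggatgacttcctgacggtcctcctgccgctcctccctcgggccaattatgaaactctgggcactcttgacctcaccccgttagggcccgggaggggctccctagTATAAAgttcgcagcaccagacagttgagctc
EPGN upstream, chr4:75173987-75174186, plus strand: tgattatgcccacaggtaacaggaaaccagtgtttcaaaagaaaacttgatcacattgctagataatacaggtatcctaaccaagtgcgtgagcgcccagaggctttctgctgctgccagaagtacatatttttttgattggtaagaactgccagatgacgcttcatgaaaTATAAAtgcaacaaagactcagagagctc
BTC upstream, chr4:75719734-75719933, minus strand: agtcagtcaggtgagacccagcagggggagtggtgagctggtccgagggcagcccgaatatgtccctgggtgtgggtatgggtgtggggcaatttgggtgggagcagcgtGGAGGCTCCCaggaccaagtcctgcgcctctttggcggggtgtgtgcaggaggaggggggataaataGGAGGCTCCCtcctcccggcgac

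The AREG values have a limit in the genome assembly used, GRCh37. The copies described here were read from this assembly, and their presence in the cells was not tested. A segment of 41.0 kb with AREG, chr4:75282465-75323487, aligns to chr4:75452280-75493261, which holds the copy AREGB, in 2 blocks with identities of 99.9% and 99.6%. Of the 50-base stretches in the AREG segment, the length of the sequencing reads, 95.9% occur exactly elsewhere in the genome, and 93.2% of those within 1 kb of the AREG start do. At the outermost starts of the other 8 ligand genes the share was 0%. The authors kept reads with a mapping quality of at least 30, a filter that reads with 2 equal placements fail. Both copies held 0 peaks of H3K27Ac, H3K4me1 and FAIRE, and the AREG H3K4me3 peak was the 1 peak in either. Of the 50-base stretches in that H3K4me3 peak, 89.1% have another exact copy. The part of read placement in the missing AREG peaks, and in the score and width of the H3K4me3 peak, was not tested.

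Inside EREG, an H3K27Ac peak of 9207 bp with a score of 3100 followed the promoter, under H3K4me1 of 9844 bp with a score of 201. It held 4 FAIRE peaks with heights of 67.3, 126, 71.2 and 39.2. The one of 71.2 met a small H3K4me3 peak with a score of 89.3, centred 10.6 kb from the start. Between EREG and AREG, 29.7 kb past the EREG start and 50.3 kb before that of AREG, stood a FAIRE peak of 148, taller than 97.8% of the list, with H3K27Ac at 1550 and H3K4me1 at 310. Past the 3′ end of AREG and outside the duplicated segment, H3K27Ac peaks of 640 and 3096 were centred 28.2 and 57.9 kb from the AREG start, each with FAIRE and H3K4me1. Before EPGN, H3K27Ac of 584 with FAIRE heights of 62.2 and 46.6 lay 40.2 kb upstream.

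The tallest FAIRE peaks of the unit stood outside the windows of all 4 genes. Their heights were 164 and 162, at 274 and 247 kb from the AREG start and 135 and 162 kb from the BTC start. They met H3K27Ac with scores of 3100 and 653 and H3K4me1 with scores of 791 and 590. Another H3K27Ac peak there, with a score of 2978, was centred 239 kb from the AREG start. It lay under the strongest H3K4me1 peak of the unit, 960 over 12654 bp, with FAIRE heights of 55.5 and 96.1. The 4 lists do not tell which gene, if any, these sites act on.

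**Figure D4:**
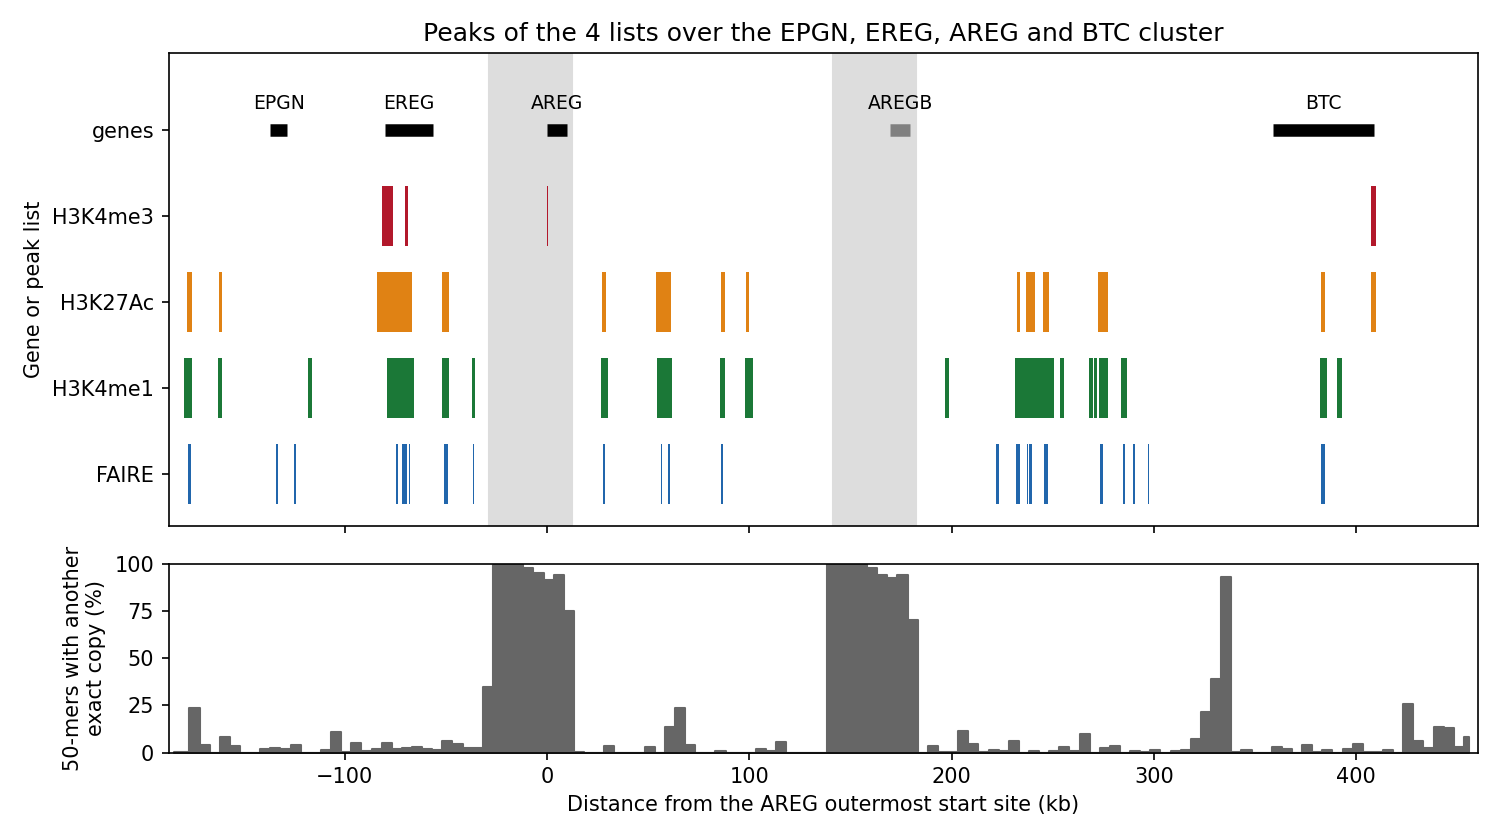
Peaks of the 4 lists over EPGN, EREG, AREG and BTC by distance from the AREG outermost start site in kb, drawn at least 0.8 kb wide, with the duplicated segments in grey; the lower panel gives the share of 50-base stretches with another exact copy in the genome, in percent. The 2 segments are near 100% and hold only the AREG H3K4me3 peak, and a group of H3K27Ac, H3K4me1 and FAIRE peaks lies between them and BTC.

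NRG2, a neuregulin of ERBB3 and ERBB4, had peaks of all 4 lists within 1 kb of its outermost start-site group, which no other ligand gene had. The gene lies on the minus strand at chr5:139226364-139422884. The promoter had H3K4me3 at 3100, H3K27Ac at 1006, H3K4me1 at 207 and FAIRE at 61.9. The FAIRE peak was centred 1.62 kb and the H3K4me1 peak 3.41 kb inside the gene, and neither counts at a promoter with start sites widened by 500 bp or with the peak centre in the promoter. Both inner start-site groups, 139 and 171 kb away, had no peak. Few peaks lay elsewhere in its window of 296.5 kb. An intronic site 57.3 kb from the start had FAIRE at 145, taller than 97.4% of the list, with H3K27Ac at 700 and H3K4me1 at 436. A second, 31.7 kb from the start, had FAIRE at 103 and H3K4me1 at 319 but no H3K27Ac. The centre of the taller peak holds an AP-1 match, in capitals, and a TATA match, which is not marked. It is shown as the tallest FAIRE peak inside any of the 9 genes.
NRG2 FAIRE centre, chr5:139365478-139365677, plus strand: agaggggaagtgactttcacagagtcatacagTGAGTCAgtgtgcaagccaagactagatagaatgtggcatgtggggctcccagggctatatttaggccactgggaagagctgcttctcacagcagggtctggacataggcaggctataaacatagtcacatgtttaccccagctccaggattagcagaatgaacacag

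Of the central 200 bases of the 69 FAIRE peaks near the ligand genes, 16 (23.2%) hold the AP-1 letters, where 29.4% of the whole list do. The TEAD letters are in 12 (17.4%, 15% in the list), the NF-kB letters in 5 (7.25%, 8.84%) and those of the cAMP response element in none (0.503% in the list). The tallest FAIRE peak beside AREG and EREG, with a height of 148, and both tallest peaks between AREG and BTC hold neither the AP-1 nor the TEAD letters in this window. Over the whole peak, the one of 148 has 1 AP-1 and 1 TEAD match, the one of 164 between AREG and BTC has 4 AP-1 matches, and the one of 162 has neither. In the central window the members are thus close to the list in these letters.

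Receptors and regulators of the pathway were examined from a list chosen for their roles. Of these 21 genes, 20 had H3K4me3 at a promoter, 18 H3K27Ac, 8 H3K4me1 and 14 FAIRE, beside the shares of all genes given above. At a MACS score of 100 or more, the 8 with H3K4me1 fell to 2. Among the receptors, EGFR had H3K4me3 and H3K27Ac at 3100, H3K4me1 at 669 and FAIRE at 54.7, and its window held 12 H3K27Ac and 17 FAIRE peaks. ERBB2 had all 4 marks, with H3K27Ac at 1299 and H3K4me1 at 57.0, near the lowest H3K4me1 score in the list, 50.01. ERBB3 had H3K4me3 and H3K27Ac at 857, and ERBB4 had H3K4me3 alone. All 4 genes of ligand release carried H3K4me3 and H3K27Ac: the proteases ADAM10 and ADAM17, with H3K27Ac at 1763 and 1451, and RHBDF1 and RHBDF2, which guide ADAM17 to the surface. All 4 adaptors (SHC1, GRB2, SOS1 and GAB1) and all 7 feedback inhibitors (ERRFI1, LRIG1, CBL, SPRY2, SPRY4, SOCS4 and SOCS5) had both marks. Among the inhibitors, H3K27Ac reached 3100 at ERRFI1, SPRY2 and SPRY4 and was lowest at LRIG1, 239. The other neuregulins had less: NRG4 had H3K4me3 and FAIRE, and NRG3 had no peak in its window.

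NRG1, which binds ERBB3 and ERBB4 and is made in many isoforms from different promoters, supplied the most peaks and has by far the longest window, 1316 kb. It spans chr8:31496738-32713184 on the plus strand, with 32 start sites in 9 groups, and its window held 3 H3K4me3, 26 H3K27Ac, 24 H3K4me1 and 29 FAIRE peaks. Per 100 kb these are 0.228, 1.98, 1.82 and 2.2, against all-gene medians of 1.39, 2.1, 0.807 and 1.97. The outermost group of 7 start sites had no peak, and no list had a peak from 50 kb before to 20 kb after the first start. A single group had H3K4me3: the 11 start sites 909 kb into the gene, with H3K4me3 at 3100 over 4556 bp, H3K27Ac at 2523 and H3K4me1 at 67.1 and 106, and no FAIRE peak. The nearest FAIRE peaks, with heights of 27.1 and 34.4, stood 5.47 and 6.14 kb from that group. A further group at 1080 kb had H3K27Ac at 187, H3K4me1 at 75.7 and FAIRE at 47.8 without H3K4me3. The start of NRG1 marked by H3K4me3 was thus an inner one.

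Inside NRG1 the peaks were clumped. Between 580 and 710 kb from the first start stood 11 of the 26 H3K27Ac peaks, with scores from 102 to 3100, 11 of the 24 H3K4me1 peaks and 15 of the 29 FAIRE peaks. The widest H3K27Ac peak, 10333 bp at 693 kb with a score of 3100, held 3 FAIRE peaks with heights of 71.3, 119 and 99.6 under the highest H3K4me1 score of the gene, 420. A second peak of 3100 stood at 589 kb, with FAIRE at 68.0. The stretches from 340 to 580 kb and from 710 to 900 kb had no peak of any list. Past the promoter with H3K4me3, an H3K27Ac peak of 2482 at 1070 kb held FAIRE peaks of 32.1 and 96.7. Of 24 H3K27Ac peaks away from start sites, 17 met FAIRE, and 15 met both FAIRE and H3K4me1.

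**Figure D5:**
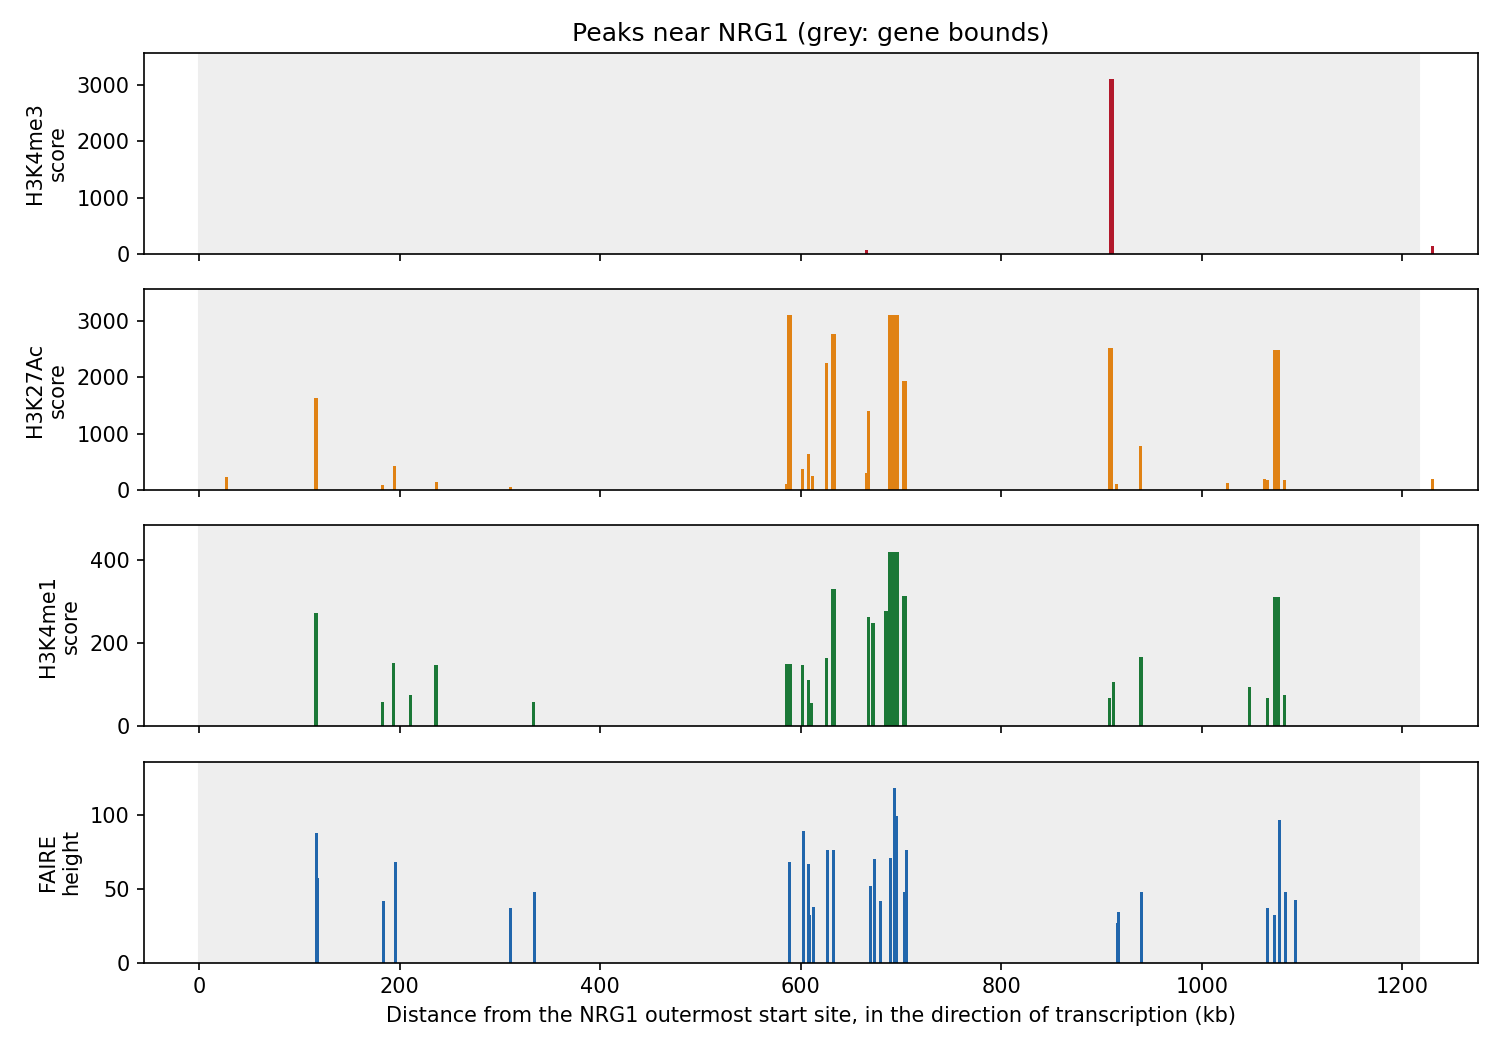
Peaks of the 4 lists in the NRG1 window by distance from the outermost start site in kb, with bars as high as the MACS score or FAIRE height and drawn at least 3 kb wide; grey marks the gene. The single tall H3K4me3 bar stands at 909 kb, and H3K27Ac, H3K4me1 and FAIRE bars crowd between 580 and 710 kb.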

How the data were processed

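Chromatin was measured in MDAMB231 cells by FAIRE-seq and by ChIP-seq of 3 histone marks. The authors aligned single-end reads of 50 cycles to GRCh37/hg19 with BWA, removed duplicates, kept reads with a mapping quality of 30 or more and combined the samples of each assay. The deposited score of a histone peak came from MACS run against input with default settings and is minus 10 times the log10 of the p-value, so that 50 stands for 1e-5. The deposited FAIRE value is the height of the signal in FindPeaks, whose scaling is not given in the sources used here. The lists were assigned to assays by their names. The lists carry no depth per sample, so no precision can be given for a peak, and no column of another sample was present.

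Shared bases (at least 1) were found with Python 3.11.15, numpy 2.4.6 and pandas 2.3.3, with the lists read as counted from 0. On 3000 simulated intervals the result was checked with bedtools 2.31.1 and differed for 0. Start sites were those of all GENCODE v44lift37 transcripts of a gene. Copies of 50-base stretches were counted on both strands of the genome, the segment with AREG was aligned with blastn 2.17.0, and motifs were exact matches on both strands of 200 bases. Figures were drawn with matplotlib 3.10.9.

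By rule, the peaks to describe for each gene were those at its start sites, the highest of each list in its window and the H3K27Ac peaks that met FAIRE. Where these were many, as in NRG1, part of them are given by counts and ranges, and some further peaks, such as the NRG2 site without H3K27Ac, were chosen after their values were seen. Genes, gene lists and motifs were chosen with earlier results of these data known. Alternatives were other promoter and window widths, the outermost start site, coding transcripts only, a MACS score of 100 or more, a FAIRE height at or above the median, and the peak centre in place of any shared base.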

Additional observations from a re-analysis of the deposited data

How the results depend on the processing

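No paired analysis was possible and no replicate could be left out, because the peak lists used here combine the samples of an assay. The authors state that they also analyzed the samples separately, but those peaks were not used here. Counts of promoter marks, of peaks near the genes and in the unit, and of H3K27Ac peaks that met FAIRE were recomputed. Each was run under some of the alternatives, not all, and 59 of 70 values stayed within 1.5 times the reported count. The counts of start-site groups, of genes with both H3K4me3 and H3K27Ac, of overlaps and of motifs were not recomputed. The number of ligand genes with H3K4me1 at a promoter fell from 5 to 3 with start sites widened by 500 bp, with the outermost start site only and with the peak centre in the promoter. That with FAIRE fell from 5 to 1 (TGFA) with the outermost start site only and to 2 (BTC and NRG2) with FAIRE heights at or above the list median. Shares of all protein-coding genes were not recomputed under the alternatives, so whether these falls are particular to the ligand genes is not known. H3K4me3 and H3K27Ac counts stayed between 6 and 7 of 9. With AREG left out, an alternative chosen after seeing the data, they were 6 and 7 of 8. Near the genes, H3K4me3 peaks rose from 13 to 23 with bounds widened by 100 kb, H3K4me1 peaks fell from 52 to 34 at a MACS score of 100 or more, and FAIRE peaks fell from 69 to 36 at or above the median height. In the unit of AREG, EREG, BTC and EPGN the FAIRE peaks fell from 27 to 14 by the same height. H3K27Ac peaks that met FAIRE near the genes fell from 39 to 25 by the same height. A cut at the list median removes the lower part of any set of peaks, and wider bounds can only add peaks. Changes under these alternatives thus follow in part from the alternative itself. At a MACS score of 100 or more, the 8 pathway genes with H3K4me1 at a promoter fell to 2. Of the counts for single ligand genes, 103 of 148 stayed within 1.5 times. NRG2 lost both H3K4me1 and FAIRE at its promoter with start sites widened by 500 bp and with the peak centre in the promoter.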

Other observations

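Neighbouring H3K27Ac peaks no more than 12.5 kb apart were joined, a step chosen after seeing the data, which left 24856 regions in the genome. Near the ligand genes or within the chromosome 4 unit, 4 of these had 3 or more peaks. The one downstream of HBEGF joined 7 peaks over 37.4 kb, of which 27.6 kb was covered by peaks, and it stood at rank 210 of all regions by covered length. It includes the start sites of PFDN1. In NRG1, a region of 7 peaks over 50.5 kb stood at rank 405 and one of 4 peaks over 22 kb at rank 1339. The region between AREG and BTC joined 3 peaks over 16.1 kb with 5 FAIRE peaks and stood at rank 2314.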
